A study of Mus musculus with 6 samples.

Results

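The longest RNAs in the deposited table of piRNA cluster counts were described in round spermatids with and without MIWI. An RNA here is a place in the genome, meaning 1 position, strand and length. Places of 33 or 34 nt were chosen by their counts, requiring at least 15 counts in a table entry summed over the 6 libraries, and all entries of a place were then added together. This gave 2937 places, called members here, among 1552728 places with at least 1 count. Of the members, 2234 were 33 nt and 703 were 34 nt long. They had 2612 different 5′ ends and lay in 112 of 773 clusters, and 325 of the 5′ ends carried a member of each length. No RNA longer than 34 nt is listed in the table, so anything longer was not analysed here. The libraries are small RNA of round spermatids, haploid cells formed by the meiotic divisions, from testes of C57BL/6 mice at postnatal day 21. There were 3 libraries of Miwi knockout (KO) males, from a global knockout line recovered from frozen sperm, and 3 of wild-type (WT) males. Round spermatids of the knockout reach step 4 of their development at most, so genotype and developmental step cannot be told apart here, nor can fewer cells of a kind and less RNA per cell. The comparison asked whether the pachytene piRNA profile differs without MIWI. Values of single libraries are listed in the order of replicates 1, 2 and 3.

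PIWI-interacting RNAs (piRNAs) are small RNAs of the germ line that are cut from long cluster transcripts and loaded into PIWI proteins, usually with a U as the first base. After loading, the 3′ end is trimmed back to the edge of the protein, so the length of a piRNA reflects the PIWI protein that holds it. In mouse spermatocytes and round spermatids these proteins are MILI (PIWIL2), which holds the shorter piRNAs, and MIWI (PIWIL1), which holds the longer ones.

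Levels are given as counts per 100 miRNA counts of the same library. The miRNA total ranged from 146487 to 243655 counts in KO and from 179761 to 246030 in WT, and the piRNA table held 1009902 to 1785660 counts in KO libraries and 4059156 to 6623310 in WT libraries. The miRNAs of meiotic and later germ cells (miR-34b, miR-34c and miR-449a) made up 29.6% to 33.5% of miRNA counts in KO and 27.4% to 29.1% in WT, without overlap. Of these, miR-34b alone overlapped between genotypes. Those of spermatogonia (miR-221, miR-222, miR-146a and miR-21a) made up 0.651% to 0.836% in KO and 0.715% to 0.863% in WT. The 5 miRNAs of Sertoli and other somatic cells (miR-202, miR-143, miR-145a, miR-126a and miR-451a) made up 2.34% to 2.75% in KO and 2.87% to 3.895% in WT, without overlap, and none was at 0. Singly, miR-143 and miR-451a did not overlap, while miR-202, miR-145a and miR-126a did. The part of these differences in the results was not tested.

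Of the members, 301 lie wholly within an exon of a single non-coding gene, and their sequence can be read from GENCODE M21 transcripts (build GRCm38). The 8 of these with the highest levels are shown, chosen after their values were seen, to show on the RNA itself where the most frequent KO length ends. In 6 of them the most frequent KO length is shorter than the WT one, and at the 5′ end that both Gm10010 RNAs share it is longer, 33 nt in KO and 32 nt in WT. Each is written 5′ to 3′ with T for U. Capitals mark the bases that lie beyond the length most frequent in KO at the same 5′ end, and the WT length is not marked. In the order shown, the most frequent WT length is 32, 33, 30, 31, 32, 32, 32 and 33 nt. At the first Gm21269 end, the KO length of 28 nt held only 16 of 59 KO counts, and the WT length of 30 nt held 2489 of 13203 WT counts.

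Gm49794, 34 nt: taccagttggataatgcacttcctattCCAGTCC
Gm49794, 33 nt: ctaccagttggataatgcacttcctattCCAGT
Gm21269, 33 nt: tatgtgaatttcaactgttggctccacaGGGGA
Cep83os, 33 nt: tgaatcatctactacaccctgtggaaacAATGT
Gm10010, 33 nt: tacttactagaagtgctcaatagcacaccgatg
Gm10010, 34 nt: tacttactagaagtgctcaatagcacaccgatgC
Gm21269, second member of 33 nt: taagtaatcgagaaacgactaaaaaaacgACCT
Gm49793, 33 nt: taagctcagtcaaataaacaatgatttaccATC

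The 5 genes named are non-coding in the annotation. The places, in the same order, are chr17:27358606-27358639 and chr17:27358605-27358637 on the plus strand, chr7:73824992-73825024 on the plus strand, chr10:94676225-94676257 on the minus strand, chr6:128189256-128189288 and chr6:128189255-128189288 on the minus strand, chr7:73819463-73819495 on the plus strand and chr17:27308318-27308350 on the minus strand. The first base was T in 7 of them, and the 33 nt RNA of Gm49794 began 1 base upstream of that T, with a C.

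The class as a whole was scarce in KO. Members summed to 1.81, 1.56 and 2.28 counts per 100 miRNA counts in the KO libraries, against 44.2, 38.5 and 55.9 in the WT libraries. All 3 KO libraries were far below all 3 WT libraries. The means were 1.88 ± 0.367 (SD, n = 3) in KO and 46.2 ± 8.85 (SD, n = 3) in WT, 24.5-fold lower in KO (exact permutation test, two-sided, p = 0.1, the smallest that 3 against 3 libraries allows, and 0.129 adjusted over 9 length classes). Since a place could enter through WT counts alone, the same sum was taken over all 40596 places of 33 or 34 nt without a minimum, and it was 19.5-fold lower in KO (3.27 ± 0.618 against 63.5 ± 13.1, SD, n = 3). Of the members, 2660 had at least 15 counts in WT and fewer in KO, 24 had at least 15 in KO and fewer in WT, 151 had that many in each genotype, and 102 in neither. Against the piRNA table total in place of miRNAs, members made up 0.259% of KO counts and 1.92% of WT counts, 7.42-fold lower in KO.

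The deficit was not deepest at the greatest length. The KO level was 5.23-fold below WT at 29 nt, 16.3-fold at 30 nt, 31.7-fold at 31 nt and 35.6-fold at 32 nt, then 24.7-fold at 33 nt and 10.8-fold at 34 nt. At each of these lengths the genotypes did not overlap. RNAs of 25 to 28 nt, the length usual for MILI, had a KO level of 485 ± 22.9 and a WT level of 428 ± 35.8 per 100 miRNA counts (SD, n = 3), and the libraries overlapped (exact permutation p = 0.2). Within that class KO was higher without overlap at 25 nt (69.3 against 46.4), 26 nt (133 against 85.5) and 27 nt (163 against 123), and lower without overlap at 28 nt (121 against 173).

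**Figure D1:**
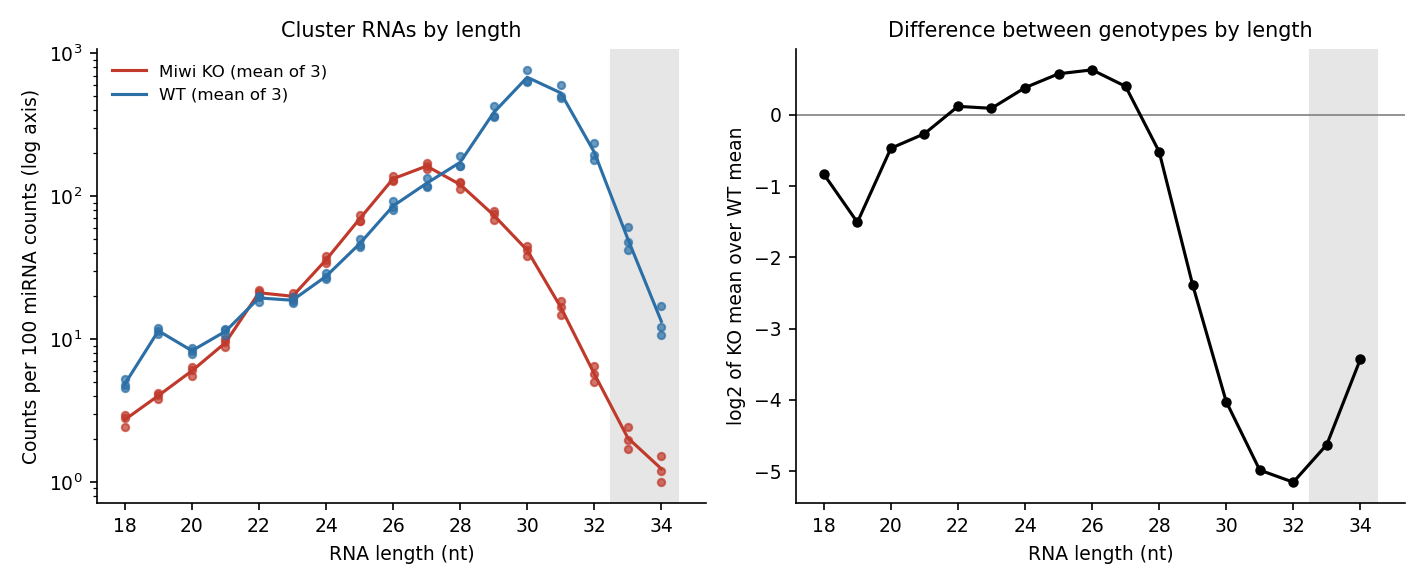
Left, counts per 100 miRNA counts (log axis) of all cluster RNAs by length in nt, with a point for each library and lines through the means of 3 KO and 3 WT libraries; right, log2 of the KO mean over the WT mean at each length. The grey band marks 33 and 34 nt, where KO was 24.7-fold and 10.8-fold below WT, against 35.6-fold at 32 nt.

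Ratios within a library need no scale between libraries. Members amounted to 1.67%, 1.59% and 1.96% of the counts of 29 to 32 nt places in the KO libraries, against 3.01%, 2.70% and 3.23% in the WT libraries. The KO share was lower without overlap, by 0.78 on the log2 scale (exact permutation p = 0.1, also 0.1 adjusted over 8 ratios). Members met the count minimum mostly through WT, which favours a lower KO share. Without a minimum in either class the log2 difference was -0.58 (exact permutation p = 0.1). Members against the 31 to 32 nt places alone went in the opposite direction, with 11.02% ± 0.839 for KO against 7.25% ± 0.533 for WT (SD, n = 3). This was 0.60 higher in KO on the log2 scale (exact permutation p = 0.1, adjusted 0.1). The 34 nt members had 62.3%, 59.2% and 69.2% of the counts of the 33 nt members in KO, and 24.4%, 24.7% and 26.5% in WT. The KO libraries held relatively more 34 nt RNA, 1.33 higher on the log2 scale (exact permutation p = 0.1, adjusted 0.1), and without a minimum count the difference was 1.20. The 34 nt members were thus 12.7-fold lower in KO and the 33 nt members 32.1-fold lower.

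A piRNA's 5′ end names the cut that made it, while its 3′ end depends on trimming, so the RNAs of other lengths that began at the members' 5′ ends were examined. These lengths were not used to choose the members. At the 2612 5′ ends, RNAs of 25 to 28 nt accounted for 61.0%, 61.5% and 58.9% of all counts in the KO libraries, against 8.61%, 8.76% and 8.23% in the WT libraries. For RNAs of 29 to 32 nt the shares were 31.4% ± 1.32 with KO and 78.1% ± 0.399 with WT (SD, n = 3). Neither share overlapped between genotypes (exact permutation p = 0.1 each). On the miRNA scale the 25 to 28 nt RNAs of these 5′ ends stood at 37.4 ± 1.83 (KO) and 33.97 ± 3.42 (WT) per 100 miRNA counts (SD, n = 3), with overlapping libraries (exact permutation p = 0.2). The 29 to 32 nt RNAs stood at 19.4 ± 2.09 and 312 ± 40.1. This sum covers lengths that differed in opposite directions: the KO level over the WT level was 1.22 at 25 nt, 1.55 at 26 nt, 1.36 at 27 nt and 0.755 at 28 nt.

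Among counts of 25 to 32 nt at the members' 5′ ends, the 25 to 28 nt share was 65.8% ± 1.45 (KO) and 9.85% ± 0.242 (WT), 56.0 percentage points apart (SD, n = 3, exact permutation p = 0.1). At 62849 other 5′ ends that had RNAs of 29 to 32 nt with at least 15 counts, the shares were 76.0% ± 1.18 and 16.8% ± 0.549. The members' ends thus held a lower share of short RNAs than the others in both genotypes. Both sets of ends were chosen by counts of long RNAs that came mostly from WT. The comparison between the sets is thus a description with no test, and the p-value above is not evidence of its own. The mean length of these RNAs was 27.9 nt in KO and 30.3 nt in WT at the members' ends, and 27.4 nt and 29.7 nt at the other ends.

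**Figure D2:**
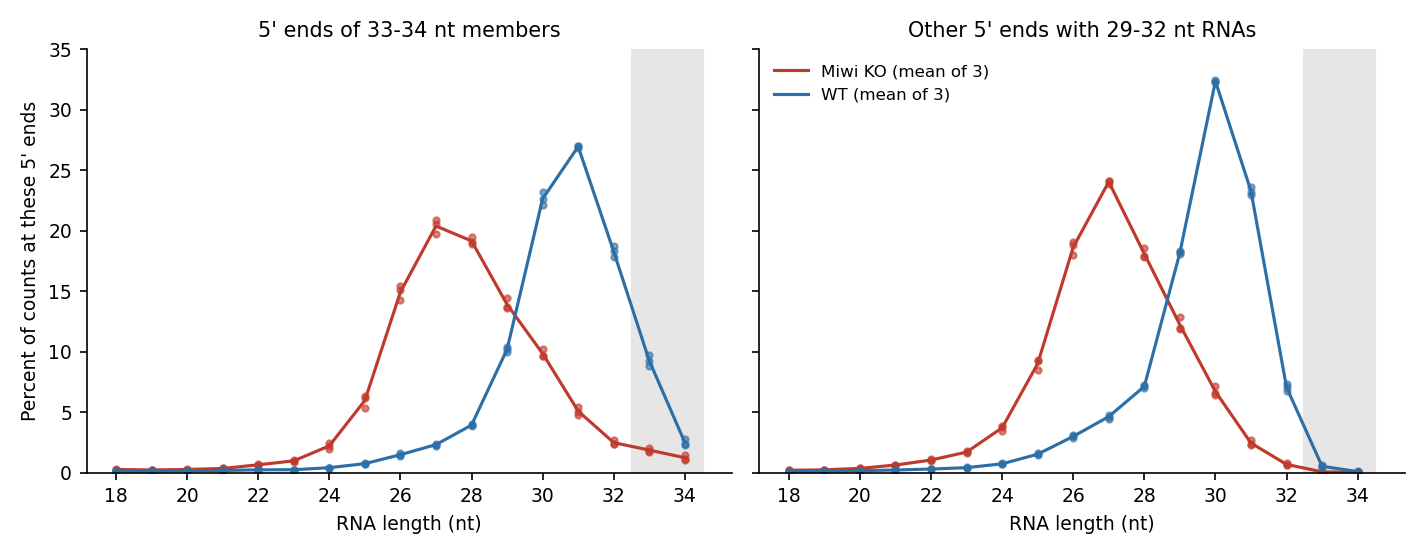
Percent of all counts at a set of 5′ ends by RNA length in nt, for the 2612 5′ ends of members (left) and 62849 other 5′ ends (right), with a point for each library and lines through the means of 3 libraries. WT peaks at 31 nt and KO at 27 nt at the members' ends, and the grey band marks the lengths used to choose them.

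End by end, the shift was common but not general. At 1531 members' 5′ ends with at least 20 counts in each genotype, the most frequent length was shorter in KO by 3 nt or more at 916 (59.8%), by 1 or 2 nt at 314 (20.5%), the same at 257 (16.8%) and longer at 44 (2.87%). At 22237 other 5′ ends with that depth the shares were 55.9%, 25.3%, 16.9% and 1.91%. The difference between the sets of ends was not tested.

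The Gm49794 pair shows the shift on adjacent 5′ ends. The 34 nt RNA had 0 counts in each KO library and 673, 688 and 1170 in WT replicates 1 to 3. Its 33 nt neighbour had 0, 0 and 1 in KO and 565, 630 and 1066 in WT. RNAs of the same 5′ ends were still made in KO: at the 34 nt member's end there were 1258 KO counts, of which 745 were 27 nt long, and at the neighbour's end 341, of which 298 were 28 nt long. Both of these KO lengths stop at base 27358632. In WT the most frequent lengths, 32 nt and 33 nt, both stop at base 27358637. The 2 RNAs thus shared a 3′ end in each genotype, 5 bases apart between genotypes, and those 5 bases open the capitals in the sequences above. At the 34 nt member's end, WT also had a separate peak at 34 nt with few RNAs of 33 nt (108, 49 and 181 counts).

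The highest member did not follow this pattern. On chromosome 5 at 113348949-113348981, plus strand and outside annotated genes, it had 45, 19 and 42 counts in KO against 2315, 1584 and 4434 in WT, and it was 78.9-fold lower in KO (log2 change -6.27, SE 0.25, adjusted p = 2.59e-132, edgeR quasi-likelihood test). All RNAs of its 5′ end summed to 928 KO counts and 36191 WT counts, and 31 nt was the most frequent length in both. Only 49 of the KO counts were of 25 to 28 nt. The place 1 nt downstream, also 33 nt long, went the other way, with 19, 8 and 28 counts in KO against 2, 1 and 3 in WT, and it rose in KO (log2 change 3.09, SE 0.56, adjusted p = 1.04e-07, edgeR). At that downstream end all lengths summed to 1751 counts in KO and 319 in WT, mostly of 30 nt, and these ended at base 113348979, the same base at which the 31 nt RNAs of the upstream end stop.

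**Figure D3:**
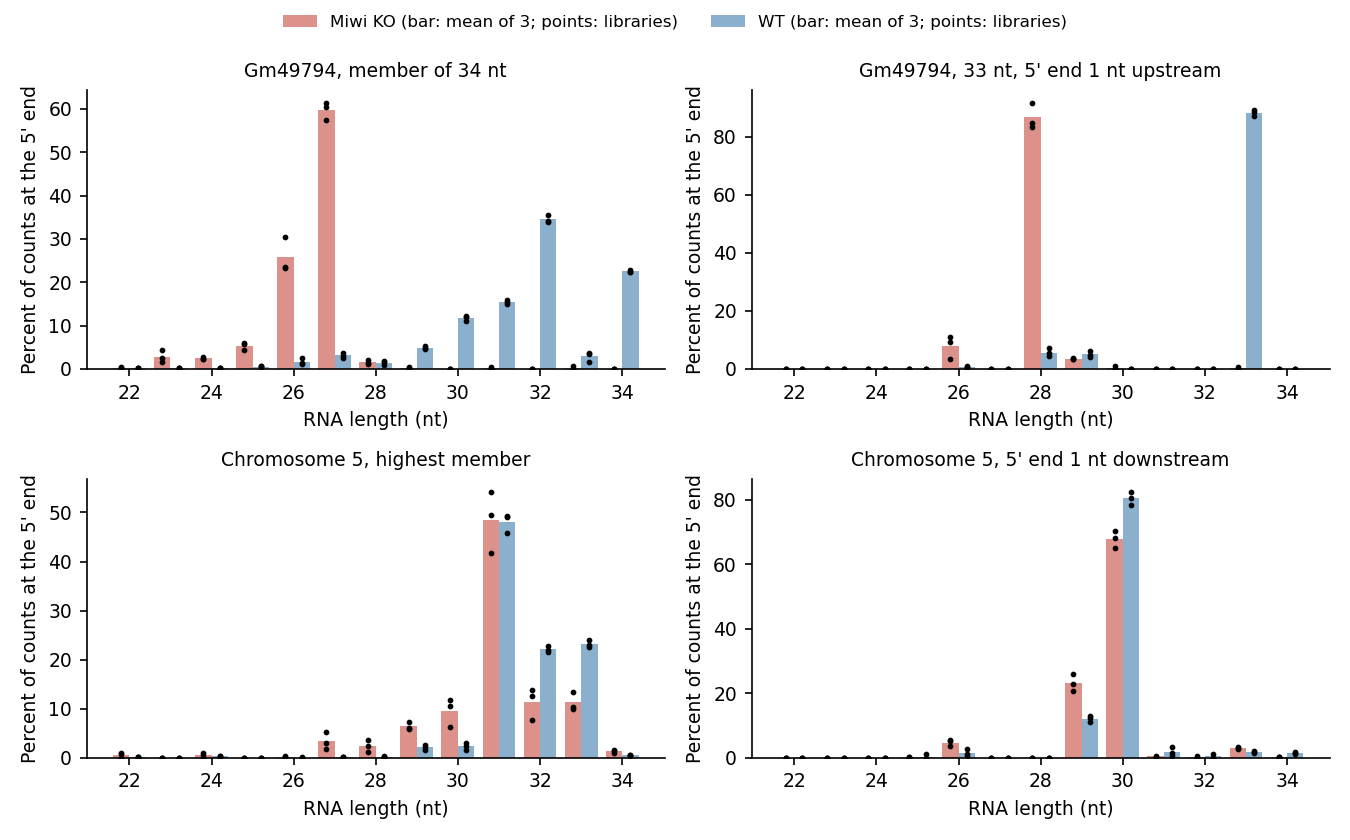
Percent of each library's counts at a 5′ end by RNA length in nt, for 4 ends: the adjacent pair in Gm49794 (top) and the highest member on chromosome 5 with the place 1 nt downstream (bottom). Bars are means of 3 libraries and points are libraries; in Gm49794 the KO lengths peak at 27 and 28 nt and the WT lengths at 32 and 33 nt, while on chromosome 5 both genotypes peak at 31 nt and at 30 nt.

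The 12 members with the highest mean level over the 6 libraries all fell in KO, beside 94.0% of all members and 61.4% of all places. Their rank rests mostly on WT counts, which favours a fall, so these falls and their p-values are descriptions. Levels were concentrated in few members, since the 10 highest held 13.2% of the summed level in WT and the 100 highest 40.1%. The second highest lies in an intron of Gm12648 on chromosome 4 at 94325573-94325605, minus strand, and was 99.5-fold lower in KO (0.00854 ± 0.00361 against 0.850 ± 0.184 counts per 100 miRNA counts, SD, n = 3). At this 5′ end the most frequent length was 30 nt in both genotypes. The third, chr6:127829626-127829658, plus strand, was 462-fold lower (0.00146 ± 0.00117 against 0.677 ± 0.0561), and its most frequent length was 31 nt in WT and 27 nt in KO. Its KO counts were few (1, 4 and 3), and without KO replicate 2 its log2 change moved from -8.97 to -9.57.

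The fourth, sixth and seventh were overlapping RNAs of the minus strand of chromosome 7. The fourth and sixth, of 33 nt (69905788-69905820) and 34 nt (69905787-69905820), share a 5′ end and were 88.3-fold and 85.8-fold lower in KO. The seventh (69905789-69905821) begins 1 base upstream and was 148-fold lower. At the shared end 33 nt was the most frequent length in KO and in WT, and only 12 of 212 KO counts were of 25 to 28 nt. The 33 nt RNA held 48 of the 212 KO counts and 4082 of 14577 WT counts, and its lead over 32 nt was small. In KO there were 17, 7 and 24 counts of 33 nt, against 18, 7 and 16 of 32 nt. In WT there were 1136, 982 and 1964 of 33 nt, against 1203, 908 and 1785 of 32 nt.

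At chr2:151151567-151151599, plus strand, the member had 1, 0 and 2 counts in KO against 767, 638 and 1878 in WT. The end's most frequent length was 31 nt in WT and 27 nt in KO. At chr6:127804834-127804866, plus strand, the fold was 455, at chr15:74646505-74646537, plus strand, it was 61.1. The member at chr1:92993795-92993827, minus strand, had 0, 1 and 0 counts in KO against 608, 649 and 983 in WT. Its 5′ end shifted from 32 nt in WT to 26 nt in KO, with 349 of 469 KO counts at that length. The member on chromosome 6 kept 31 nt in both, and the member on chromosome 15 had 33 nt in WT and 32 nt in KO. Of the 12 highest members, 6 had a shorter most frequent length in KO and 6 had the same one. The 5′ end shared by the fourth and sixth is counted for each of them. The chromosome 15 difference was 1 nt on close counts. Its end had 21, 8 and 23 counts of 32 nt in KO, against 15, 6 and 19 of 33 nt. In WT it had 603, 543 and 1201 of 32 nt, against 627, 547 and 1203 of 33 nt.

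**Figure D4:**
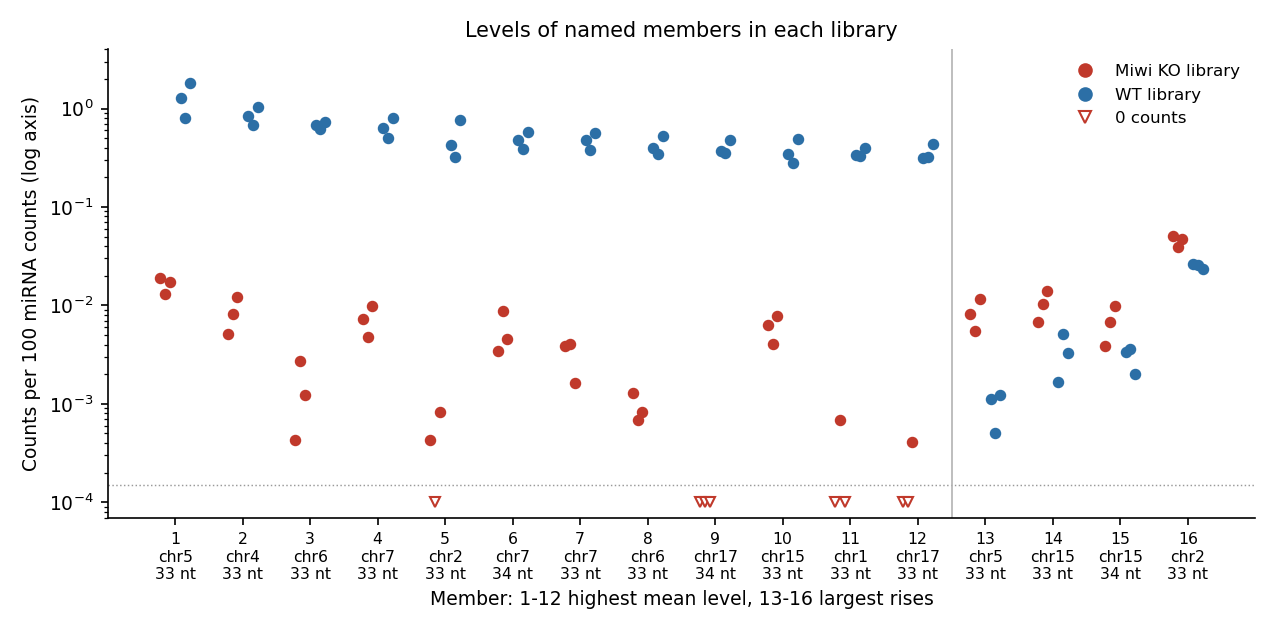
Counts per 100 miRNA counts (log axis) of 16 members in each of 3 KO and 3 WT libraries. Members 1 to 12 are those of highest mean level. Members 13 to 16 are the largest rises among members with at least 60 counts and no overlap between genotypes. Open triangles below the dotted line stand for libraries with 0 counts. In members 1 to 12 every KO library lies below every WT library. In members 13 to 16 every KO library lies above, which the choice required.

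In the edgeR test over all 204848 places with at least 15 counts, 2760 members fell (94.0%), 18 rose (0.613%) and 159 were not called (adjusted p threshold 0.05). Of all places tested, 61.4% fell and 10.9% rose. Scaled to the piRNA table total, 2416 members fell and 113 rose, and DESeq2 called 2666 and 10. The rule's count minimum was met mostly through WT, so these counts describe the members and are not evidence of their own. A total of 1594 members (54.3%) had no count in KO and none had no count in WT, against 32.2% of all places at 0 in KO. The median log2 change was -5.82 for members and -3.24 for all places. With places at 0 set at a bound of 3 counts over the 3 libraries of a genotype, the medians were -3.63 and -2.49. By length, 95.4% of 33 nt places and 87.7% of 34 nt places fell, against 97.7% of 32 nt places and 77.2% of 29 nt places. Among the 151 members with at least 15 counts in each genotype, 98 fell, 5 rose and 48 were not called, with a median log2 change of -1.45. Just below the limit, 202 places whose highest entry had 14 counts averaged 0.837 KO and 17.95 WT counts, and 169 at 15 counts averaged 1.20 and 18.5.

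The largest falls were of members with no count in any KO library. Beside the Gm49794 RNA of 34 nt, at least 834-fold lower in KO (against 3 counts over the 3 KO libraries), they were the Gm21269 RNA printed above (506, 482 and 1003 WT counts, at least 649-fold lower) and 4 RNAs on chromosomes 17, 18, 15 and 2. At chr17:66211896-66211928, plus strand, the whole 5′ end was almost empty in KO, with 1 count of any length against 9783 in WT, and the member was at least 532-fold lower. The member at chr18:67040186-67040218, minus strand, was at least 491-fold lower, with 167 KO counts and 9221 WT counts of all lengths at its end. At the ends on chromosome 15 (59258356-59258388, minus strand) and chromosome 2 (92573034-92573066, plus strand) the members were at least 415-fold and 388-fold lower. Of the KO counts at these ends, 691 of 731 and 437 of 596 were of 25 to 28 nt, against 495 and 1237 counts of that length in WT. Loss of the long RNA therefore occurred at an end that kept its short RNAs (chromosome 15) and where they were fewer (chromosome 2). It also occurred where they were gone (chromosome 17, 0 counts of 25 to 28 nt in KO against 482 in WT).

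Of the 18 members that rose, 16 did not overlap between genotypes and 5 had at least 60 counts. The place at chr2:92562023-92562055, plus strand, outside annotated genes, had 118, 58 and 115 counts in KO against 47, 51 and 58 in WT (log2 change 0.87, SE 0.25, adjusted p = 0.000864, edgeR). At its end 33 nt was the most frequent length in KO (291 of 1982 counts), and within 26 to 33 nt the KO level at this end ranged from 0.0201 counts per 100 miRNA counts at 31 nt to 0.0457 at 33 nt. A pair on chromosome 15, within 1 cluster, rose by 1.60 (SE 0.42, 74637583-74637615, adjusted p = 0.000232) and 1.22 (SE 0.47, 74637207-74637240, adjusted p = 0.0136) on the log2 scale in edgeR, both on the plus strand. At those ends the short RNAs were also more frequent in KO, with 379 against 195 and 403 against 183 counts of 25 to 28 nt. The second of the pair was not called by DESeq2, without a minimum count, or without KO replicate 3 or WT replicate 3. Of the 18, 5 had the 5′ end of another member 1 or 2 nt away, as did 497 of all members.

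Few members overlapped other small RNA genes. In all, 33 overlapped an annotated tRNA, snRNA, miRNA or snoRNA gene by at least 1 base. Strand was not compared, so a member need not be a product of the gene it overlaps. Of these 33, 24 fell, 0 rose and 9 were not called (edgeR), beside 61.4% of all places and 94.0% of members that fell. At tRNA genes, which supply the adaptors of translation, 11 of 13 members fell and their summed level was 12.2-fold lower in KO. The highest, at chr3:97158085-97158117, plus strand, over the tRNA gene n-TEctc12, had 18, 8 and 29 counts in KO against 246, 267 and 463 in WT (18.4-fold lower, adjusted p = 2.98e-51, edgeR). It was spread over 41 table entries, so the split among near-identical sequences is uncertain. This doubt is not confined to this member, since 2061 of the 2937 members had more than 1 entry. A pair at n-TDgtc15 on chromosome 5 (125405646-125405678 and 125405645-125405678, minus strand) was 28.1-fold and 45.9-fold lower, and at its 5′ end the most frequent length was 26 nt in KO and 32 nt in WT. At miRNA genes within clusters, 5 of 6 members fell, with a 70.6-fold lower sum. The highest was a 34 nt RNA at chr17:27358068-27358101, plus strand, over Mir7218 in an exon of Gm49794, with 0, 0 and 1 counts in KO against 263, 197 and 405 in WT. At snRNA genes, which encode spliceosome RNAs, the summed level was 2.38-fold lower in KO, and 8 of 13 members fell, a share close to the 61.4% of all places. The difference between these gene types was not tested.

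Clusters were compared by all their 33 to 34 nt counts, without a minimum per place. Of 169 clusters with at least 15 such counts, 144 fell in KO (85.2%) and 0 rose (0%), with none rising at an unadjusted p under 0.05 in edgeR, and DESeq2 called 130 and 0. These calls depend on the miRNA scale, on which the median cluster change was -3.58 (log2). TMM factors of the cluster sums, which centre the clusters on one another, moved that median to -0.17 and gave 59 falls and 38 rises, and the piRNA table total gave 110 and 11 at a median of -1.92. In the 81 clusters with at least 200 counts of 33 to 34 nt the log2 change ranged from -10.00 to 0.43 with a median of -4.36, beside -3.92 for 29 to 32 nt and -0.05 for 25 to 28 nt in the same clusters. Across these 81 clusters the 33 to 34 nt change went with that of 29 to 32 nt (Pearson r = 0.84, Spearman rho = 0.80) and less closely with that of 25 to 28 nt (0.69 by both). These are descriptions across clusters, which share the same libraries and scale.

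**Figure D5:**
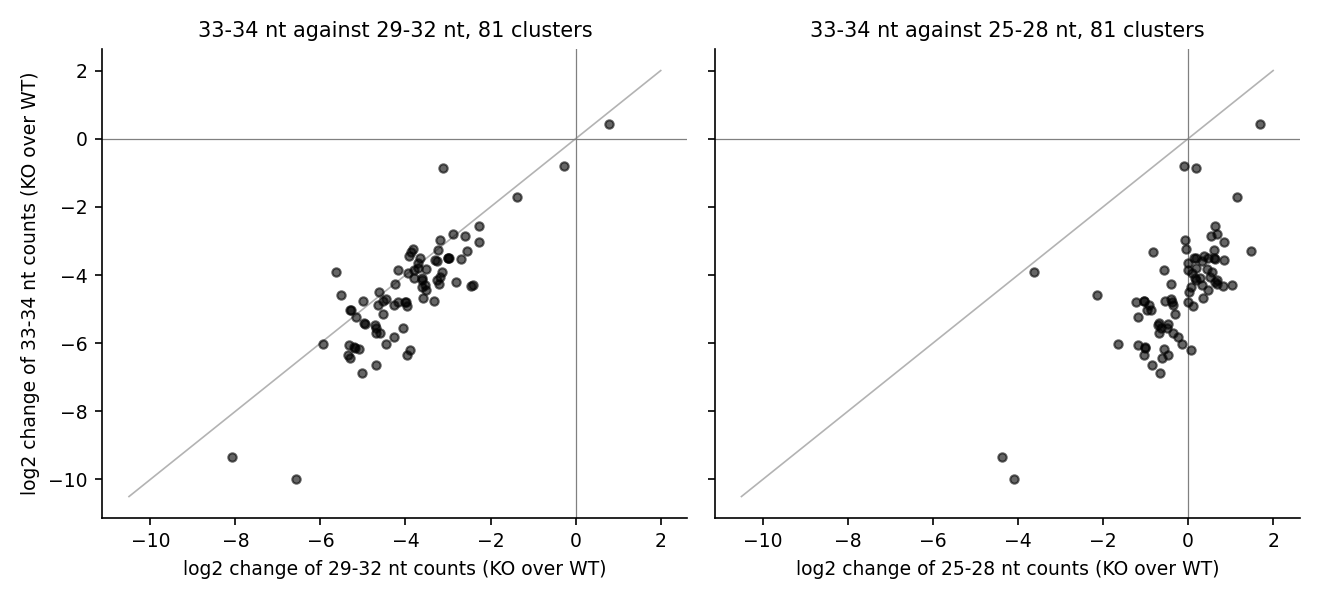
Log2 change (KO over WT) of 33 to 34 nt counts against that of 29 to 32 nt counts (left) and 25 to 28 nt counts (right), with a point for each of 81 clusters and the line of equal change in grey. The 33 to 34 nt change has a median of -4.36 and lies above 0 in 1 cluster, while the 25 to 28 nt change lies above 0 in 37.

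The 10 highest clusters held 57.4% of the 33 to 34 nt level in WT and 52.4% in KO. The highest, chr17:27283000-27370953 with Gm10505, Gm49794 and Gm49793, had 1454, 734 and 1737 counts in KO against 8367, 8236 and 15155 in WT, 8.19-fold lower in KO (log2 change -3.03, SE 0.27, adjusted p = 1.05e-18, edgeR). Its 25 to 28 nt counts rose in KO (log2 change 0.84, adjusted p = 2.96e-20). This cluster kept more of its long RNAs than the median cluster, and with TMM factors of the cluster sums its sign turned, to 0.58. It holds 215 members, the most of the clusters named here.

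The next clusters lay further below WT. The cluster at chr6:127778004-127842026 (Gm42811, 4921513H07Rik) was 30.4-fold lower, that at chr18:67028034-67088022 was 35.5-fold lower, and that at chr5:113316068-113373001, which holds the highest member, was 19.7-fold lower. The cluster at chr12:98379001-98455979 (5330409N07Rik) was 69.1-fold lower, and its 25 to 28 nt counts also fell (log2 change -1.01, adjusted p = 3.96e-27). At chr7:69879006-69940023, with the 3 overlapping RNAs described above, the fold was 64.7, and at chr7:73774005-73842029, with Gm21269, it was 17.1. The clusters at chr2:92536004-92613016, chr5:149786048-149834611 and chr15:59245061-59304022 were 15.4-fold, 57.0-fold and 28.02-fold lower. All 10 fell in edgeR.

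The share of 33 to 34 nt among counts of 29 to 34 nt differed among clusters even in WT, from 1.10% to 35.2% over the 81 clusters with a median of 3.12%. Among the 10 highest it was 4.71% ± 0.350 in WT and 2.83% ± 0.211 in KO at chr17:27283000-27370953, and 4.32% ± 0.400 and 1.52% ± 0.178 at chr7:69879006-69940023 (SD, n = 3). At chr2:92536004-92613016 it was nearly equal, at 2.60% ± 0.257 in WT and 2.60% ± 0.272 in KO, so there the longest RNAs and those of 29 to 32 nt were reduced in the same proportion.

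At the low end, the cluster at chr17:79331951-79339191, within Cdc42ep3, had 0 counts of 33 to 34 nt in KO and 114, 72 and 207 in WT, at least 128-fold lower. That at chr5:101829330-101839975, within Wdfy3, had 0, 0 and 1 counts in KO against 240, 244 and 410 in WT. In both, the 25 to 28 nt counts fell as well, with log2 changes of -4.08 and -4.38, and the 29 to 32 nt changes were -6.58 and -8.07. The cluster at chr13:50903013-50917024 had 2, 0 and 0 counts in KO against 74, 71 and 136 in WT. That at chr14:44932114-44946021 was 111-fold lower.

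At the other end, the cluster at chr11:6141013-6153953 (Nudcd3) had 82, 51 and 91 counts in KO against 43, 42 and 83 in WT (log2 change 0.43, SE 0.33, adjusted p = 0.223, edgeR). Its 25 to 28 nt counts rose (log2 change 1.68, adjusted p = 1.82e-63). The 33 to 34 nt difference passed the test without WT replicate 3 (log2 change 0.66), with the replicate block, and on the 2 other scales. The cluster at chr11:87418058-87427025, which holds the U1 snRNA gene Rnu1a1, fell by 0.79 (SE 0.34, adjusted p = 0.028), with WT counts of 64, 54 and 252. Without WT replicate 3 its change was 0.047, and the fall was not called by DESeq2 or without KO replicate 1 or 2. The cluster at chr1:72222087-72231011, over the snRNA gene Gm25360, fell by 0.86 (SE 0.36, adjusted p = 0.0227), and this was not called by DESeq2 or without WT replicate 3 or KO replicate 2. Both of these falls turned to rises on the 2 other scales. The cluster at chr13:50298001-50318023 was 3.37-fold lower (adjusted p = 1.32e-05, edgeR), but its change was 1.89 (adjusted p = 4.06e-07) with TMM factors of the cluster sums and 0.013 (adjusted p = 0.965) with the piRNA table total.

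Features of the sequence were not used to choose the members. Bases were read only in annotated exons, and most members lie outside them. Of 405 members whose first base lies in an annotated exon, 84.7% began with T. The share was 88.0% of 17955 such places of 29 to 32 nt and 86.4% of 10949 of 25 to 28 nt, with at least 15 counts. Weighted by counts, T came first in 77.5%, 81.1% and 79.1% of the counts of these 405 members in the KO libraries, against 86.5%, 86.1% and 85.4% in the WT libraries. The difference, KO minus WT, was -6.80 percentage points, without overlap (exact permutation p = 0.1). It was -4.39 points among members with at least 60 counts (p = 0.2, exact permutation) and -2.78 with each member counted once. Places of 29 to 32 nt were also lower in KO without overlap, at 81.1% against 85.2%. Of 368 members that fell, 86.7% began with T, and of 37 that did not fall, 64.9% did. Base 10 was A in 27.8% of 403 members and 29.9% of 17860 places of 29 to 32 nt where it could be read.

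PIWI proteins that slice a transcript leave pairs of piRNAs on opposite strands whose 5′ ends overlap by 10 bases. Such a partner, of 24 to 34 nt on the opposite strand, stood at 166 of the 2612 members' ends (6.36%), against 0.766% to 1.42% for each other overlap from 5 to 20 bases. The same share was 4.21% for 30 nt places and 6.48% for 27 nt places.

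Most members, 2000 (68.1%), lie outside annotated genes. On the same strand as a gene, 422 lie in an intron, 266 in an exon of a non-coding gene and 69 in an exon of a protein-coding gene. A further 180 lie opposite to a gene. The summed KO level was 26.6-fold below WT outside genes, 20.1-fold in non-coding exons, 19.2-fold in introns, 16.8-fold in protein-coding exons and 45.0-fold opposite to genes. In that order 1900, 234, 384, 64 and 178 members fell, beside 61.4% of all places, and since the rule used these counts nothing is read from them.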

How the data were processed

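Small RNA libraries of purified round spermatids (3 KO, 3 WT) were prepared with the Ion Total RNA-Seq chemistry, per the labels' protocols. The authors deposited raw counts per reference sequence, made with featureCounts v1.5.0-p2 per the file headers. The submitters' processing notes also name build mm9, DESeq2 and cutadapt, and the aligner is not given in the sources used here. Coordinates in the deposited names are 1-based and matched GRCm38: the first bases of piRNAs and mature miRNA 5′ ends fit that build. Entry length minus 20 nt stood in for read length. At 43 mature miRNA 5′ ends, 50.3% of counts lay within 1 nt of the mature length and 76.2% within 2 nt. Entries of 33 or 34 nt held 0.0428% of these counts. The remaining counts lay more than 2 nt from the mature length. Lengths therefore rest on an uncertain stand-in, above all for differences of 1 or 2 nt, and larger differences are not free of this doubt. A member had a median of 3 entries, and 2061 of the 2937 members had more than 1. The sources used here do not say how reads that match several entries of a place were counted. Such reads could have been split among entries or counted more than once. Levels and ranks of members could depend on this, as could which places met the count minimum. Entries without a strand (238 counts) were left out. Shares and floors cover counting error only.

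Counts were tested with the quasi-likelihood test of edgeR 4.0.16 (R 4.3.3, library size the miRNA total, no TMM factors, at least 15 counts, Benjamini-Hochberg adjustment over all places), after a test on simulated data. Values per library were compared with exact two-sided permutation tests in Python 3.11.15. DESeq2 1.42.0, other scales, minimum counts of 60 or none, single entries, a replicate block and leaving out libraries were the alternatives. The labels do not say that libraries came from separate animals, so p-values describe the spread among these samples alone, and that may be technical. Every pair of libraries of a genotype differed by more than sampling noise. The members, lists and tests were chosen with earlier results of these data known. Named members were the 12 highest, up to 6 largest rises and falls without overlap and with at least 60 counts, the 4 highest over small RNA genes, the 10 highest clusters, and the 4 largest and 4 smallest changes among clusters with at least 200 counts. The sequences shown beside these were chosen by level among members with exon sequence, and none was read for chromosome 18. Miwi mRNA was not analysed here, so the labels were not checked on it.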

Additional observations from a re-analysis of the deposited data

How the results depend on the processing

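The KO deficit of the summed members kept its direction in all 14 alternatives, from 7.42-fold with the piRNA table total to 32.1-fold for 33 nt alone, and from 21.97-fold to 27.4-fold when a library was left out. The comparison with 29 to 32 nt turned to 0.60 (log2) against 31 to 32 nt, and leaving out a library gave -0.86 to -0.71. Members called as fallen numbered 2670 to 2764 without a library, and 960 of 984 at a minimum of 60 counts, where fewer places were tested. Rises numbered 14 to 22 without a library, 113 with the piRNA table total, 10 with DESeq2, 5 at a minimum of 60 counts and 30 over single entries (main count 18). Cluster falls numbered 132 to 142 without a library and 59 with TMM factors of the cluster sums, and cluster rises 0 to 1 without a library (1 without WT replicate 3), 38 with TMM factors and 11 with the table total. The 5′ end difference was 55.5 to 56.8 points and the first-base difference -7.74 to -5.93 points without a library, and the latter was -2.78 with each member counted once. These minimum p-values of 0.1 say nothing about stability.

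With the replicate block, 2746 members fell and 17 rose, and 144 clusters fell and 1 rose. Same-numbered libraries had deviations correlated at 0.01, 0.11 and 0.14. KO replicates 2 and 3 correlated best with the WT replicate of the same number, and KO replicate 1 with WT replicate 2 (0.04). The numbers were not taken as pairs in the main fit, and a batch shared by number was not tested.

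Under TMM factors of the cluster sums the change reversed to 0.58 at chr17:27283000-27370953, 2.85 at chr11:87418058-87427025, 2.78 at chr1:72222087-72231011 and 1.89 at chr13:50298001-50318023. With the piRNA table total the last 3 were 0.97, 0.89 and 0.013. Leaving out a library gave -1.12 to 0.047 for the chr11 cluster. The cause of these changes was not tested. Of 325 alternative fits of the 25 named members 321 kept their call and direction, as did 180 of 198 for the 18 named clusters. KO libraries held only 12087 member counts in all, so levels of single members in KO rest on few counts.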
